A study of Caenorhabditis elegans with 2 samples.

Results

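Chromatin immunoprecipitation followed by sequencing (ChIP-seq) for LSY-27 gave 235 regions at transfer RNA (tRNA) genes of the X chromosome, out of 30000 regions in the list called on both replicates together and 4725 of those on X. A region was taken when its summit, the position of highest enrichment, lay within 500 bp of a gene of biotype tRNA in the RefSeq annotation of the WBcel235 assembly, which is build ce11. The 317 regions chosen by the same rule on the autosomes and the 4490 other regions on X are given for comparison. The rule itself used position only, but the list it was applied to was called on both replicates together and had a lowest signal value of 2.98. Overlap with the replicates' own lists is therefore not independent of the choice of regions.

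LSY-27 is a C2H2 zinc finger protein known for its role in the left/right difference between the ASE taste neurons of Caenorhabditis elegans. Whole young adult hermaphrodites of strain OP401, a transgenic line that stably carries LSY-27 with GFP and FLAG at its C terminus, formed the single group, with 2 biological replicates numbered 2 and 3. The sample descriptions state that the precipitation used an antibody to GFP, while the antibody field names lsy-27, and the chromatin was sheared by sonication. The animals' age is given as unknown, all samples come from 1 strain, no tissue was separated, and the control was not analysed here. With a single group there is no contrast between conditions. Every comparison is therefore between regions or lists, no test was made, and differences between sets of regions are given as values only.

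RNA polymerase III transcribes tRNA genes, and the promoter lies inside the gene. The A box and the B box within the transcribed sequence are bound by the factor TFIIIC, which places TFIIIB just upstream of the start, and transcription ends at a run of T residues behind the gene. Nematode genomes carry many identical tRNA gene copies, and in C. elegans the X chromosome holds a large share of them, often inside introns of protein-coding genes.

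The X chromosome holds 276 of the 612 nuclear tRNA genes in the annotation (45.1%). The gene sequences fit the annotated class. A match to the A box consensus was present in 97.8% of the 276 genes, a B box match (GTTCNANNC) in 97.1% and a run of TTTT within 40 bp downstream of the 3′ end in 98.9%. The median A box start was base 8 of the gene and the median B box start base 52. Matches to both boxes were counted anywhere in the gene, so some start elsewhere.

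The following gene sequences are those the results below turn on, read 5′ to 3′ on the strand of the gene from the RefSeq WBcel235 genome. Capitals mark the matches to the A box consensus (first) and to the B box (second). The arginine gene C18A11.t2 and the leucine gene C04E7.t1 represent the 2 largest of the families whose every nuclear copy lies on X, with 10 and 9 genes. F08F1.t3 is a leucine gene of the same length as C04E7.t1 that differs from it at 8 positions, has no A box match and no region. C16B8.t1 is 1 of 13 identical X copies, the largest family on the chromosome. C06G1.t1 has the same sequence as the histidine genes F28H6.t2 to F28H6.t7, which lack regions. K02A4.t1 occurs once in the genome, C04A11.t1 carries an annotated intron, and ZK563.t1 has the thresholded region that is missing from replicate 2. In K02A4.t1 the match to the A box consensus starts at base 16, and whether it is the A box was not tested.
C18A11.t2 (arginine, chrX:8036685-8036757, minus strand): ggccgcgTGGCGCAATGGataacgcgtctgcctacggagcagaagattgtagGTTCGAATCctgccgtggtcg
C04E7.t1 (leucine, chrX:353255-353336, minus strand): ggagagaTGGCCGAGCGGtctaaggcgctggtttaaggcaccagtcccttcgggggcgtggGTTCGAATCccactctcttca
F08F1.t3 (leucine, chrX:8409296-8409377, minus strand): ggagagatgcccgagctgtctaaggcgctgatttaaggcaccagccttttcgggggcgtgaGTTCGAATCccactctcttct
C16B8.t1 (proline, chrX:3969556-3969627, plus strand): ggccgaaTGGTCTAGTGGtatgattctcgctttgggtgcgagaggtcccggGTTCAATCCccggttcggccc
C06G1.t1 (histidine, chrX:16634830-16634901, minus strand): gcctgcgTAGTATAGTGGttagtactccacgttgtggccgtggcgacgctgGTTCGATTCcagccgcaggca
K02A4.t1 (serine, chrX:12889940-12890021, plus strand): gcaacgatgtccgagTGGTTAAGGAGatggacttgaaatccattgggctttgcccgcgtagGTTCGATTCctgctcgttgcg
C04A11.t1 (leucine, with its intron, chrX:13665555-13665673, plus strand): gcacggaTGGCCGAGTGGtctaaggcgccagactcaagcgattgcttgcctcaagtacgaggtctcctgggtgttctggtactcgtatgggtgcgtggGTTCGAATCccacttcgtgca
ZK563.t1 (threonine, chrX:3371422-3371493, minus strand): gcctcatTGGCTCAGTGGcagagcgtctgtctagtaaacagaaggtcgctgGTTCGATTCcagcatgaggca
The window of 201 bp around the summit at C18A11.t2 shows the gene in its surroundings. Here capitals mark the part of the tRNA gene inside the window, which reads in reverse complement because the gene is on the minus strand, and the summit is the central base.
C18A11.t2 summit window (chrX:8036551-8036751, plus strand): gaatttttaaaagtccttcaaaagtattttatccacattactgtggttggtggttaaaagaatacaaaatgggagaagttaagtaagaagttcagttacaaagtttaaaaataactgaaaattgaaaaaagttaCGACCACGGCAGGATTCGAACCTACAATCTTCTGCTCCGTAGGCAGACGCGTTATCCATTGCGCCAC
In that window the summit lies 34 bp beyond the 3′ end of the gene, at position +106 counted along the gene from its 5′ end.

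The X tRNA regions were among the stronger regions of the list. The signal value, the authors' own score for each region, had a median of 14.2 over the 235 regions, with quartiles of 8.31 and 22.6 and a range of 3.06 to 57.9. The median of the 317 autosomal tRNA regions was 13.3 (range 2.99 to 51.4), and that of the 4490 other X regions 4.57, with a maximum of 31.9. The median X tRNA region thus stood at percentile 96.5 of the list, against 45.9 for other X regions. Among the 235 regions, 167 (71.1%) were in the strongest 10% of the list and 116 (49.4%) ranked at 1000 or better, while 20 fell in the weaker 50%. The ratio of medians was 3.10 over other X regions and 1.06 over autosomal tRNA regions. Over other X regions it was 1.88 in the list of replicate 2 alone and 2.71 in that of replicate 3 alone. Of the other X regions, 6 lay within 500 bp of an X tRNA pseudogene, a degenerate copy, and had signals of 3.17 to 11.3 with a median of 4.82.

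**Figure D1:**
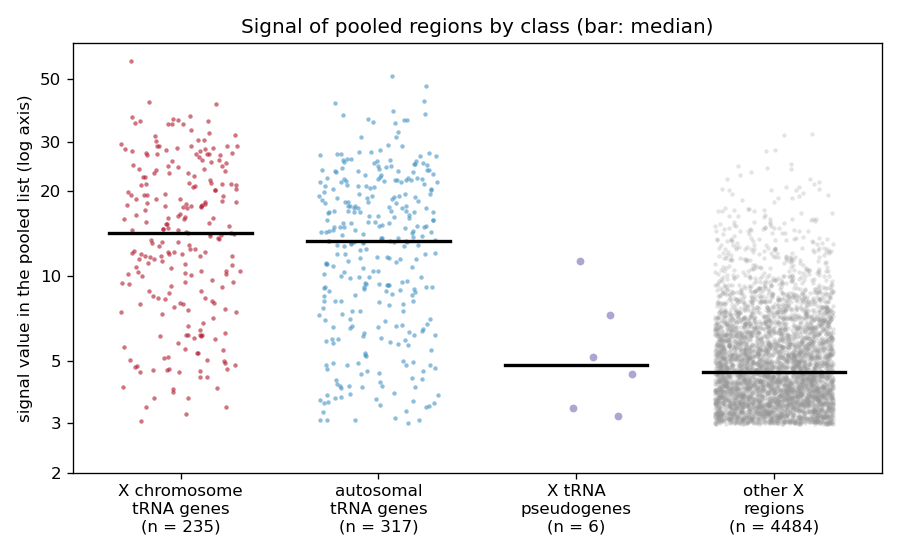
Each point is 1 region of the pooled list, with its signal value on a log axis, for X tRNA genes, autosomal tRNA genes, X tRNA pseudogenes and the X regions at neither (4484 after the 6 at pseudogenes are set apart); the bars are medians. The X tRNA regions spread from 3.06 to 57.9 and overlap the autosomal tRNA regions over nearly the whole range, while most other X regions lie at the bottom.

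The thresholded list is the short list of 342 regions that the authors obtained with the irreproducible discovery rate method. Of the 235 X tRNA regions, 61 (26.0%) were on that list themselves, and 8 more overlapped a listed neighbour by at least 1 bp, giving 69 (29.4%, exact Clopper-Pearson 95% interval 23.6 to 35.6). The share over all 30000 pooled regions was 1.24%. It was 19.9% (63 of 317, interval 15.6 to 24.7) for autosomal tRNA regions and 0.267% (12 of 4490) for other X regions. The intervals count regions as independent and allow for counting error alone, although 47 of the 235 regions overlapped another of them. Every X tRNA region with a signal of at least 22.1, the lowest on the thresholded list, was on it, and the strongest one left out had 21.9. For X tRNA regions, a place on that list thus coincides with a high pooled signal. It is no separate measure of agreement between the replicates. The 61 regions made up 17.8% of the thresholded list.

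Counted by gene, 246 of the 276 X tRNA genes (89.1%, interval 84.8 to 92.5) had a region within 500 bp, against 295 of 336 autosomal tRNA genes (87.8%, interval 83.8 to 91.1) and 6 of 29 X tRNA pseudogenes (20.7%, interval 7.99 to 39.7). A thresholded region was near 78 X genes (28.3%), 69 autosomal genes (20.5%) and 0 of the pseudogenes. The strongest region of a gene had a median signal of 16.1 on X and 15.5 on the autosomes. Neighbouring genes shared regions, and 59 X genes had 2 or more regions, so genes and regions do not count each other. When each region was assigned to its nearest gene alone, 75.7% of X tRNA genes had one.

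Summits centred on the genes. The median summit lay 31 bp downstream of the 5′ end of the nearest gene, with quartiles of −9 and 69.5 bp, where the median gene is 72 bp long. Of the 235 summits, 112 (47.7%) were inside the gene, 68 upstream and 55 downstream, and 213 (90.6%) were within 100 bp. The autosomal tRNA summits had a median of +27 bp, with 137 of 317 (43.2%) inside the gene. Among the 61 thresholded regions the median was +32 bp, 30 were inside the gene and all 61 within 100 bp. The lists of the single replicates gave +36 bp for replicate 2 (181 regions) and +34.5 bp for replicate 3 (240 regions). All 235 regions were 316 bp wide with the summit at the centre, so the position carries no width of its own and A box and B box cannot be told apart at this scale.

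**Figure D2:**
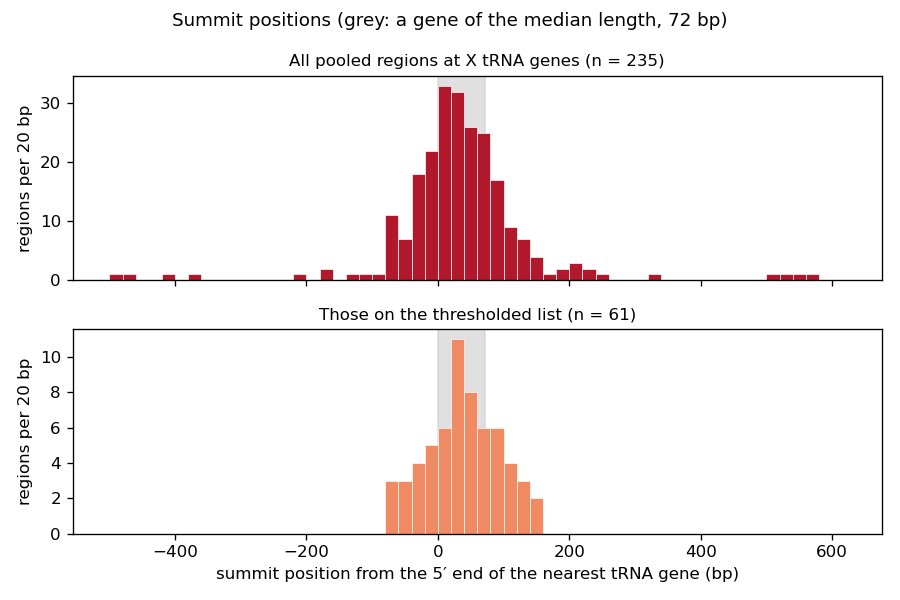
The horizontal axis is the summit position in bp from the 5′ end of the nearest X tRNA gene along its strand, in bins of 20 bp, and the vertical axis the number of regions, for all 235 regions (above) and the 61 on the thresholded list (below). Grey marks a gene of the median length, and both distributions centre on it, with medians of +31 and +32 bp.

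The median signal varied with the place of the summit. Regions with the summit inside the gene had a median signal of 16.9, against 12.0 upstream and 13.2 downstream. Other measures did not follow this order. The thresholded shares were 28.6% inside, 29.4% upstream and 30.9% downstream, beside 1.24% over the whole list. The shares found in both replicates were 69.6%, 77.9% and 76.4% in the same order, beside 15.7%. The 213 regions within 100 bp had a median of 15.5, and the 22 farther out 5.08. Over the 235 regions, Spearman's rho between signal and distance was −0.229, a description over regions that share libraries and sometimes reads. At the edge of the rule, the 2 regions just inside 500 bp were at C53C7.t1 (483 bp, signal 5.03) and R04E5.t6 (491 bp, 5.50), and the 2 just outside were at C16B8.t1 (501 bp, 6.11) and ZK380.t1 (502 bp, 4.98).

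The strongest X tRNA region, at chrX:3035914-3036229, had a signal of 57.9 in the pooled list, 15.9 in replicate 2 and 39.1 in replicate 3. Its summit fell between M02F4.t2, a glutamate gene, and M02F4.t1, a glycine gene that points away from it, at −25 bp of M02F4.t2. Its rank in the list was 24. The next regions had values close to each other. The serine gene C53C7.t1 had 41.4 in the pooled list, 14.7 in replicate 2 and 20.5 in replicate 3. The arginine gene C18A11.t2 had 40.8, 13.3 and 25.8 in the same order of lists. The alanine gene F15G9.t1, in an intron of him-4 (hemicentin, an extracellular matrix protein), had 37.1, 11.0 and 26.9.

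These 4 regions had the higher score in replicate 3, but the lists have scores whose scaling is not given, so sizes are read within a list. The lowest of their percentiles within a replicate's list was 98.9, for F15G9.t1 in replicate 2. The tyrosine gene R11.t1 had 36.7 in the pooled list, 20.1 in replicate 2, the highest value of any X tRNA region there, and 14.0 in replicate 3. The glutamate gene C28G1.t1, in an untranslated exon of C28G1.2, had 36.1, 16.0 and 15.2. The methionine gene C02F12.t1 had 35.8, 4.82 and 29.1. Of these 3, R11.t1 was highest in replicate 2 and C02F12.t1 in replicate 3.

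The remaining 8 of the 15 strongest regions had pooled signals between 32.2 and 35.5. They lay at the valine gene R04D3.t2 (35.5), the isoleucine gene C42D8.t1 (35.5), the leucine genes C04E7.t1 (34.9), C04A11.t1 (34.6) and C53C7.t3 (32.9), the asparagine gene F52H2.t2 (34.7), the glycine gene T10B10.t2 (34.7) and the arginine gene T06H11.t3 (32.2), which is in an intron of unc-58, a potassium channel gene. All 15 had a region in both replicates, as did 73.6% of the 235 X tRNA regions and 15.7% of the whole pooled list. The 15 were chosen by signal in a list called on both replicates together. Their presence in both is therefore no separate measure of agreement. T06H11.t3 had 17.1 in replicate 3, at percentile 99.2 of that list, and 2.31 in replicate 2, at percentile 19.8, from the region that overlapped it most. A second replicate 2 region of 12.1 overlapped it by 73 bp. Of these 15 regions, 9 have a single tRNA gene within 500 bp.

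**Figure D3:**
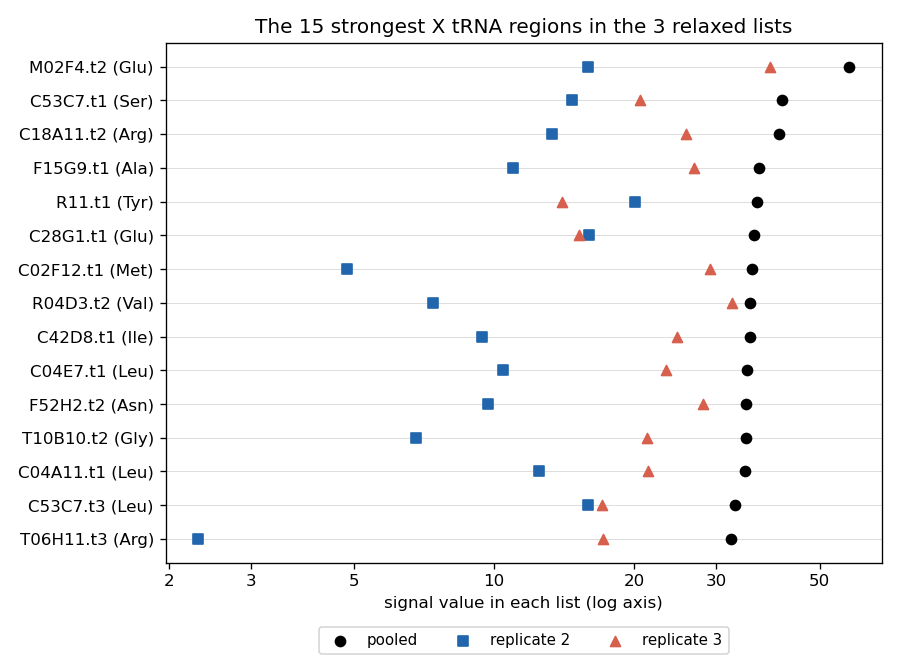
Signal values on a log axis for the 15 strongest X tRNA regions, strongest at the top, in the pooled list (circles), replicate 2 (squares) and replicate 3 (triangles). The pooled values run from 32.2 to 57.9, while replicate 2 runs from 2.31 at T06H11.t3 to 20.1 at R11.t1.

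The 5 weakest regions had pooled signals of 3.06 to 3.68, close to the lowest value in the list (2.98). A region at the arginine gene F12D9.t5 had 3.06, while the strongest region within 500 bp of that gene had 15.5. A region at the arginine gene C11G10.t1, in an intron of the innexin gene unc-7, had 3.22. That region had 8.28 in replicate 3 (percentile 93.9) and no match in replicate 2. The serine gene B0395.t1 had 3.43 with no region in either replicate, and the glycine gene C28G1.t4 had 3.68. A region with its summit 204 bp upstream of the alanine gene T07H6.t2 had 3.43, while a stronger region with its summit inside the same gene had 21.2.

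All 20 standard isotypes, the amino acids the tRNAs carry, had regions on X. Gene numbers ranged from 5 for tryptophan to 27 for arginine. Every X gene had a region for cysteine (7 genes), glutamine (15), phenylalanine (6), threonine (14), tryptophan (5) and valine (14). Between 82.6% and 95.0% had one for 13 further isotypes, from glutamate (19 of 23) to glycine (19 of 20) and proline (19 of 20). The others of this range were alanine (12 of 13), arginine (23 of 27), asparagine (5 of 6), aspartate (11 of 12), isoleucine (12 of 13), leucine (15 of 17), lysine (16 of 18), methionine (7 of 8), serine (16 of 18) and tyrosine (7 of 8). Histidine stood below with 2 of 9 X genes (22.2%), while 8 of the 11 autosomal histidine genes had a region.

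The median signal by isotype ranged from 8.97 for aspartate (14 regions) to 23.1 for asparagine (5 regions). Alanine had a median of 21.8 over 12 regions, tyrosine 20.3 over 5, valine 18.8 over 13 and arginine 11.1 over 25. Within arginine the signals spanned 3.06 to 40.8, a wider range than the one between the isotype medians. Each of the 20 isotypes had at least 1 thresholded region, and the strongest member of each had a signal between 24.0 and 57.9. For isotypes outside the 15 strongest regions these were T28B4.t1 for phenylalanine (27.4), rtw-5 for tryptophan (27.8), Y59E1B.t2 for proline (28.0), C06G1.t1 for histidine (28.4), H35N09.t1 for glutamine (26.5), F59C12.t2 for aspartate (27.1), C25F6.t4 for lysine (31.8), F42D1.t1 for cysteine (24.0) and ZK563.t1 for threonine (30.3). Of 3 genes with no assigned isotype, 2 had a region.

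**Figure D4:**
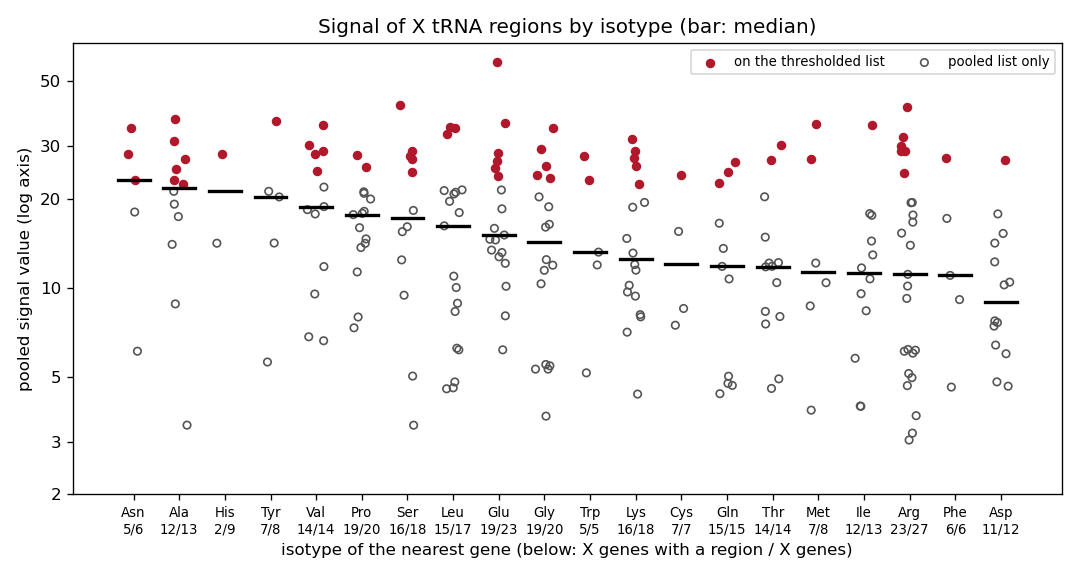
Each point is an X tRNA region at its pooled signal value on a log axis, placed by the isotype of the nearest gene; filled points are on the thresholded list, bars are medians, and the fractions give X genes with a region over all X genes of the isotype. The 1 region at a gene with no assigned isotype is not drawn. Every isotype spans a wide range, and the fraction for histidine is 2 of 9.

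The histidine genes without regions form a cluster. F28H6.t2 to F28H6.t7 are 6 identical genes between 14135045 and 14137010 on X, arranged on alternating strands, and none had a region in the pooled list or in replicate 3. F28H6.t2 and F28H6.t7 each had a replicate 2 region within 500 bp. C06G1.t1, whose sequence has 0 differences from theirs, had 28.4 in the pooled list, 8.39 in replicate 2 and 13.8 in replicate 3. ZC449.t1, a histidine gene of another sequence, had 14.1 in the pooled list. Of the 32-base words in the gene and 250 bp on each side, 4.44% occurred once in the genome for F28H6.t3 and F28H6.t6, 4.81% for F28H6.t4, 34.4% for F28H6.t7, 49.2% for F28H6.t5 and 78.7% for F28H6.t2. For C06G1.t1 the share was 89.5%. How the authors handled reads with several matches is not stated in the sources used here, and its part in the missing regions was not tested. The remaining X gene of this sequence, C49F5.t1, lies elsewhere on X, with 77.1% of such words unique, and had no region either.

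Identical copies differed in signal. The 276 X genes hold 104 distinct mature sequences, and 223 genes (80.8%) have an identical copy elsewhere in the nuclear genome, counted over the spliced sequence. The 10 identical arginine genes that share the C18A11.t2 sequence all had a region, 6 of them thresholded, beside 28.3% of all X tRNA genes. Their strongest signals ran from 7.46 to 40.8, with a median of 26.7. At the top were C18A11.t2 (40.8) and the pair T06H11.t2 and T06H11.t3, which shared a region of 32.2. C14F11.t1 and F09B9.t1 each had 29.0, F09B9.t2 had 24.4, C03A3.t1 17.6, F12D9.t4 15.3 and T01C1.t1 10.1. K01A12.t3 had 7.46, from a summit 435 bp away. Their flanks are largely distinct, with 74.0% to 91.3% of 32-base words unique in the gene and 250 bp on each side.

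Among the 9 identical leucine genes that share the C04E7.t1 sequence, 8 had a pooled region, with strongest signals of 6.16 to 34.9. C04E7.t1 had 34.9 and was the only one thresholded, F14B8.t1 had 21.4, C05E7.t3 21.3 and D1009.t2 21.0. F08F1.t2 had 10.01, the pair C05C9.t1 and C05C9.t2 shared 8.86, and C48C5.t4 had 6.16. F08F1.t1 had no pooled region, although it had a replicate 3 region. F08F1.t3, the divergent leucine gene printed above, had no region in any of the lists.

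The 13 identical proline genes that share the C16B8.t1 sequence all had a region in the pooled list and in both replicates. Their strongest signals lay between 7.32 and 21.1, with a median of 15.9. None was near a thresholded region, beside 28.3% of all X tRNA genes. The 12 X copies of the glutamate gene at M02F4.t2 had regions at 11, with 4 thresholded, a median of 15.1 and a range of 6.16 to 57.9. The 11 X copies of the glycine gene at M02F4.t1 all had one, with 6 thresholded, a median of 24.0 and a range of 3.68 to 57.9. The upper end of both ranges is the region M02F4.t1 and M02F4.t2 share. Genes that share a region were counted separately, so shared signals entered these counts and medians more than once. Among the glycine genes, R04E5.t2 and R04E5.t3 share 29.3, T10B10.t1 and T10B10.t2 share 34.7, and ZK154.t3 and ZK154.t4 share 16.0. Among the proline genes, pairs at F46G11 (21.1), C48C5 (15.9), F23D12 (14.6) and Y7A5A (11.3) each share their strongest region.

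The median signal was 12.1 for regions whose nearest gene is a single copy (35 regions), 14.0 for 2 to 9 copies (60 regions), 17.5 for 10 to 19 copies (88 regions) and 14.1 for 20 or more (52 regions). The thresholded shares in the same order were 20%, 26.7%, 38.6% and 23.1%, beside 1.24% over the whole list. Spearman's rho between signal and copy number was 0.041 over the 235 regions. That between signal and the percent of unique 32-base words in the region was −0.263, where that percent had a median of 81.8 and a range of 29.1 to 100. The parts of copy number and word uniqueness in the signal were not tested.

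Of the X tRNA genes, 223 have no 32-base word of their own that occurs once in the genome, and 8 have at least 90% such words. Among the 8, the serine gene K02A4.t1, the threonine gene T25B6.t1 and the proline gene ZK678.t2 had a region. T25B6.t1 had 7.54 and ZK678.t2 7.96, neither thresholded. The region nearest to K02A4.t1 had 15.5, with its summit 57 bp upstream, and a thresholded region of 22.4 within 500 bp had its summit inside the neighbouring alanine gene K02A4.t2. Y75D11A.t2, C18A11.t1, F08F1.t3, F47E1.t3 and C34E11.t1 had none in the pooled list, and C18A11.t1 alone of these 5 had a region in a single replicate's list, that of replicate 2. Over all 53 single-copy X genes, 77.4% had a region and 20.8% a thresholded one, against 91.9% and 30.04% of the 223 genes with copies. Single copy here means that no other gene has the identical spliced sequence. Some of these genes, among them F18G5.t1, F18G5.t2, C36C9.t2 and T06H11.t1, have 0% unique 32-base words.

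An A box match was found in 244 of the 246 X tRNA genes with a region (99.2%), against 26 of the 30 without one (86.7%). The B box match was found in 239 of the genes with a region (97.2%) and 29 of those without (96.7%), and the T run in 245 with a region (99.6%) and 28 without (93.3%). Unique 32-base words in the gene and 250 bp on each side had a median share of 89.6% (range 26.8 to 100) in genes with a region and 87.2% (4.44 to 96.6) in those without. These differences were not tested. The genes without an A box match and without a region were F08F1.t3, C34E11.t1, C31E10.t1 and F52E10.t2. Of the 30 genes, 9 had a region in replicate 2 and 3 in replicate 3, and 19 had one in neither. In the 316 bp of sequence under each region, searched on both strands, the A box match was present in 92.3% of X tRNA regions, 20.3% of all pooled regions and 20.4% of other X regions. The B box match was present in 90.6% of X tRNA regions, 12.3% of all pooled regions and 11.4% of other X regions. A match is a string of letters and no measurement of binding, and the share follows from the choice of regions at tRNA genes.

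The annotation gives 2 exons to 12 X tRNA genes, 8 for tyrosine, 3 for leucine and 1 for isoleucine, and 11 of them had a region. C04A11.t1, printed above with its intron, had 34.6 and R11.t1 36.7, both thresholded. The other leucine genes had 20.7 (F42F12.t1) and 10.9 (F02D10.t3), and the isoleucine gene C02B4.t1 had 8.35. F56F10.t1, a tyrosine gene of the R11.t1 sequence, had no region in any list. Among the tryptophan genes are sup-7, sup-21, sup-28 and sup-33, identical genes known from suppressor mutations that let the tRNA read a stop codon. Their strongest signals were 23.2 for sup-7, which was thresholded, 13.2 for sup-33, 11.9 for sup-28 and 5.15 for sup-21, so the 4 copies spread over a wide range. The remaining tryptophan gene, rtw-5, is a single copy and had 27.8.

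Most X tRNA regions lay outside protein-coding genes. The summit was between protein-coding genes for 151 regions (median signal 14.6), in an intron for 79 (13.7), in a coding exon for 2 and in an untranslated exon for 3. Within a host gene, the 43 regions whose tRNA gene is on the opposite strand had a median of 16.5 and the 41 on the same strand 11.9. The thresholded shares were 30.2% (13 of 43) on the opposite strand and 34.1% (14 of 41) on the same strand. They stood beside 29.4% of all X tRNA regions and 1.24% over the whole list. In or outside genes, 39 summits were also near a protein-coding 5′ end (up to 1000 bp before it or 200 bp past it), with a median of 16.6, against 13.5 for the remaining 196. A region was near 88.4% of the 95 tRNA genes in introns and 89.4% of the 180 between protein-coding genes. Of the 235 regions, 3 had another short RNA gene within 500 bp, at M163.14, mir-1829.3 and mir-237.

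Median signals lay close together for single and clustered genes. The 172 regions with 1 tRNA gene within 500 bp had a median of 14.3, the 53 with 2 genes 14.1 and the 10 with 3 or more 13.2. Among the 53, the median was 18.9 for 12 convergent pairs, 16.0 for 21 divergent pairs and 11.2 for 20 pairs on the same strand. Of the 10 regions in clusters, those at the glycine gene R04E5.t3 (29.3) and the glutamine gene H08J11.t3 (24.6) were thresholded. H08J11.t3 and H08J11.t5 (16.5) lie in an intron of ajm-1, an apical junction gene. The region with the most genes, 5, was at K01A12.t4 and had 7.46. The other 6 ran from 5.61 at R11.t3 to 15.5 at F12D9.t1.

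Along the chromosome, the number of tRNA genes in 5 equal parts of X from left to right was 27, 30, 89, 74 and 56. Those with a region numbered 23, 29, 82, 64 and 48, and those with a thresholded region 7, 16, 23, 19 and 13. The median signal of the regions in the same order was 12.4, 21.3, 13.5, 15.8 and 12.2. The part from 3543789 to 7087576 bp had the highest median, and 15 of its 30 regions were thresholded or overlapped a thresholded region. That share was 29.4% over all X tRNA regions and 1.24% over the whole list.

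The replicates were compared through their own lists, of 12414 regions for replicate 2 and 29326 for replicate 3. A replicate 2 region overlapped 178 of the 235 X tRNA regions (75.7%), against 28.0% over the whole pooled list. A replicate 3 region overlapped 228 (97.0%), against 66.3%. Both replicates had one at 173 (73.6%), against 15.7% over the whole list, 64.7% of autosomal tRNA regions (205 of 317) and 12.0% of other X regions (538 of 4490). Replicate 3 alone had a region at 55, replicate 2 alone at 5 and neither at 2. The replicate 3 list is the longer, and the part of list length in these shares was not tested. A single replicate region could overlap 2 neighbouring X tRNA regions, which occurred 16 times in replicate 2 and 13 times in replicate 3.

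The order of the signals depended on how regions were matched between the replicates. Over the 173 regions in both lists, Spearman's rho between the replicates' signals was 0.151, and Pearson's r of the log2 values was 0.149. The rho was 0.319 over the 141 regions matched at 50% reciprocal overlap, and 0.309 over the 135 that shared no replicate region with a neighbour, a setting chosen after the data were seen. With the first matching it was 0.139 over the 205 autosomal tRNA regions in both lists and 0.183 over 538 other X regions. These values describe regions within 2 libraries and carry no p. The X tRNA regions found in replicate 2 had a median signal of 5.73 (range 2.02 to 20.1), at percentile 90.1 of its list, and those in replicate 3 a median of 9.99 (range 2.03 to 39.1), at percentile 96.2. The summits of the 2 replicates were a median of 68 bp apart at the same X tRNA region, and within 50 bp at 68 of the 173 (39.3%).

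**Figure D5:**
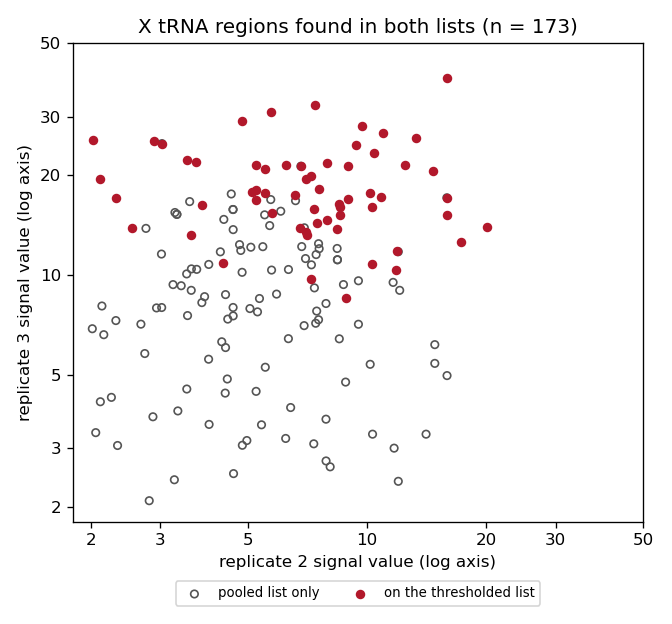
Each point is 1 of the 173 X tRNA regions found in both replicates, with its replicate 2 signal (horizontal, log axis) and replicate 3 signal (vertical, log axis); filled points are on the thresholded list. Spearman's rho is 0.151 over these points, some of which share a replicate region, and thresholded regions lie mainly at high replicate 3 values.

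Single regions show how far the orders parted. The valine gene F59C12.t1 had 30.3 in the pooled list, 25.4 in replicate 3 (percentile 99.8) and 2.03 in replicate 2 (percentile 1.89), and its region was thresholded. The alanine gene T08A9.t1 had 25.2 in the pooled list, with 19.4 in replicate 3 and 2.11 in replicate 2, and was thresholded too. The leucine gene F02D10.t3 had 10.9, with 6.88 in replicate 3 and 2.02 in replicate 2. In the other direction, ZC449.t1 had 8.06 in replicate 2 (percentile 96.7) and 2.64 in replicate 3 (percentile 25.4). The isoleucine gene R11B5.t3 had 7.87 in replicate 2 and 2.75 in replicate 3, where the summit was 159 bp from the pooled one. A second replicate 3 region, of 3.68, overlapped the pooled R11B5.t3 region by 113 bp. Neither ZC449.t1 nor R11B5.t3 was thresholded. The upstream region at T07H6.t2 was matched to 12.0 in replicate 2 and 2.39 in replicate 3, but that replicate 2 summit lay 254 bp away, inside the gene. The same replicate 2 region also matched the stronger region at the gene (21.2 in the pooled list), which had 11.7 in replicate 3, and at the gene itself the replicates therefore lay close in percentile, at 99.2 in replicate 2 and 97.6 in replicate 3. The only region overlapping the thresholded list that lacked a replicate region was at ZK563.t1, with 30.3 in the pooled list, 27.7 in replicate 3 and none in replicate 2.

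The genes of the RNA polymerase III machinery were looked up from a list of 11, all found in the annotation. At the 5′ end (1000 bp before to 200 bp after), 4 of the 11 had a pooled region, against 41.5% of the 19983 protein-coding genes with the same window. The number with a thresholded region was 0, against 1.13% of protein-coding genes. The 4 genes were rpac-19 (13.1), a subunit shared by RNA polymerases I and III, tftc-5 (9.39), a TFIIIC subunit, mafr-1 (3.38), the homologue of the polymerase III repressor Maf1, and rpc-1 (3.19), the largest subunit of the polymerase. The others, brf-1, tbp-1, tftc-1, tftc-3, rpc-2, rpc-11 and rpac-40, had none.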

How the data were processed

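The files were region lists of ChIP-seq for LSY-27 in whole young adult hermaphrodites (1 group, biological replicates 2 and 3), used in build ce11. Per the deposited notes, relaxed lists came from each replicate with its control and from both replicates pooled, and the irreproducible discovery rate method gave the thresholded list. Aligner, caller, settings, read depth and the handling of reads with several matches are not given in the sources used here. Intervals over reads were therefore not possible.

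The deposited signal value of a region is the authors' own score, whose scaling is not given, and was used within a list only. The deposited summit offset gave the summit. The lists held 30000 (pooled), 12414 (replicate 2), 29326 (replicate 3) and 342 (thresholded) regions. Summits were matched to the RefSeq WBcel235 annotation within 500 bp, and regions were counted as shared at 1 bp of overlap. Gene copies were identical spliced sequences, and uniqueness was counted over words of 32 bases on both strands of the genome. Intervals are exact Clopper-Pearson at 95% and cover counting error only.

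The regions and lists were chosen with earlier results of these data known. Items are named by rule: the 15 strongest and 5 weakest regions, 3 per direction of largest replicate difference in percentile, 2 on each side of 500 bp, thresholded regions lacking a replicate, the strongest of each isotype, genes with at least 90% unique words, the 3 most copied X sequences, regions with 3 or more genes, intron-bearing and suppressor genes and a polymerase III list. The 2 largest families with every copy on X, the histidine cluster, the genes without an A box match and the 5 parts of the chromosome were described after their values were seen. Counts were checked on simulated lists. Alternatives were distances of 250 and 1000 bp, other overlap rules, leaving out regions that share a replicate region, the thresholded list, each replicate alone and other gene assignments. Python 3.11.15, numpy 2.4.6, scipy 1.17.1, pandas 2.3.3 and matplotlib 3.10.9 were used.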

Additional observations from a re-analysis of the deposited data

How the results depend on the processing

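No paired analysis was possible because there is a single group, whose replicates 2 and 3 have no counterpart. Alternatives were judged against 1.5 times the value for counts, the spread between replicates for ratios, positions and the share of genes, the exact 95% interval for shares of regions, and 0.05 for correlations. By these limits 24 values held and 18 moved, and no ratio changed side of 1. The spread came from the same 2 single-replicate values that were judged by it. It was 0.0137 for the ratio over autosomal tRNA regions and 0.585 for the ratio over other X regions. The counts of held and moved values depend on these limits and are no measure of robustness. On the thresholded list 61 X tRNA regions remained, with a ratio of median signal of 1.14 over other X regions and 1.09 over autosomal tRNA regions, and 28.3% of X tRNA genes with a region; that list keeps only signals of at least 22.1. Single-replicate lists gave 181 to 240 X tRNA regions, ratios of 1.88 (replicate 2 alone) to 2.71 (replicate 3 alone) over other X regions and 1.03 to 1.05 over autosomal tRNA regions, median summit positions of 34.5 to 36 bp, and 75.4% to 88.0% of X genes with a region. The share found in both replicates was 64.1% with a distance of 1000 bp and 60.0% with 50% reciprocal overlap, under which Spearman's rho between the replicates was 0.319. Without regions that share a replicate region, a setting added after the data were seen, it was 0.309. The ratio over autosomal tRNA regions was 1.02 with 250 bp, 1.08 with 1000 bp and 1.08 for regions with a single tRNA gene, all close to 1. Assigning each region to its nearest gene alone left 75.7% of X genes with a region. The cause of these shifts was not tested. Read depth is not known, and with 2 replicates the spread between them is itself poorly known.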
